A study of Rattus norvegicus with 10 samples.

Results

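The genes described here are 9 genes of prostaglandin synthesis and breakdown in the testis of the rat pup: Ptgs1, Ptgs2, Ptgds, Hpgds, Ptges, Ptges2, Ptges3, Ptgis and Hpgd. They were taken as all non-control probes of a rat expression array whose RefSeq transcript belongs to one of these symbols, which gave 10 of 17990 named probes and 9 of 15148 named genes. Ptgds led to the choice of this pathway, because its difference between the groups had been seen in an earlier analysis of the same arrays. That difference is therefore given as a description with no test, and the other members entered as genes of the same pathway. Of the 10 probes, 9 were well above the local background on at least 5 of 10 arrays, 1 for each gene, and the second Ptgs1 probe was not well above background on any array.

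Testes of male pups on postnatal day 6 were profiled on 10 one-colour arrays, each labelled with the code of 1 father. The fathers were Brown Norway and the mothers Sprague Dawley rats. The fathers had received saline (5 males) or BEP (5 males) for 9 weeks and had then recovered for 9 weeks, so that no pup was treated itself; the labels do not spell out BEP. The sample titles carry only the codes C and T, read here as saline and BEP fathers, a reading that no label states outright, and the groups are called C and T throughout. The design text puts a 2 beside the testes without saying whether it counts testes or pups, and nothing states how many pups or litters stand behind an array. The p-values measure the spread between these arrays.

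C replicates 1 to 3 and T replicates 1 and 2 were hybridised on slide 1, and C replicates 4 and 5 and T replicates 3 to 5 on slide 2. The share of probes detected above background was 70.4% to 74.8% per array, no spot was saturated, and the log2 signals of any 2 arrays correlated at 0.9899 to 0.9966. A level below is the log2 of a probe's signal over the 75th percentile of its array; levels are compared between arrays for 1 probe and never between probes. Defining genes of the labelled tissue were well above background on all 10 arrays, among them Amh of Sertoli cells, Insl3 of Leydig cells and Ddx4 of germ cells. In whole testis, a change in the number of cells of a type and a change in RNA per cell cannot be told apart.

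Prostaglandins are lipid signals made on demand from arachidonic acid. The cyclooxygenases encoded by Ptgs1 and Ptgs2 turn arachidonic acid into an unstable intermediate, prostaglandin H, and terminal synthases turn that intermediate into prostaglandin D, E, F, prostacyclin or thromboxane. In the fetal testis Ptgds and prostaglandin D act beside Sox9 in Sertoli cell differentiation, and in the adult reproductive tract Ptgds protein is a plentiful lipocalin that also binds small lipophilic molecules.

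Ptgds and Ptgs2 were the members that varied most between arrays, and the 250 bases before their annotated starts are printed for that reason, 5′ to 3′ on the strand of the gene, from RefSeq on build GRCr8. The Ptgds window is chr3:28682979-28683228 on the minus strand and the Ptgs2 window is chr13:64713813-64714062 on the plus strand. Capitals mark every E-box, CANNTG, a pattern that is bound by many basic helix-loop-helix factors. A match on either strand is also a match on the other, though its middle bases can read differently there.
Ptgds: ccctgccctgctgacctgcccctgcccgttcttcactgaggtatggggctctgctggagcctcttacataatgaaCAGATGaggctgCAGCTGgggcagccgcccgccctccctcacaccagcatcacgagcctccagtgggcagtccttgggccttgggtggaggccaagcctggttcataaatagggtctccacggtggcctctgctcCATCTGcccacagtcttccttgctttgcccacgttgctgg
Ptgs2: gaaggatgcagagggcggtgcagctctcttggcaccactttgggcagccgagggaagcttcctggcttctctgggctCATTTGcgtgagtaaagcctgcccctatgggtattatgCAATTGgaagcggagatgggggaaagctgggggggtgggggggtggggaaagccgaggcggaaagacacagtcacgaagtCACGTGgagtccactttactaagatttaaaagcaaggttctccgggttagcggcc
Each window held 3 E-boxes, and 65.5% of 33469 promoter windows of the same length held at least 1. Other motifs were searched on both strands and had 0 matches in both windows. For SOX factors the letters ACAAT were searched, which 30.0% of all windows hold. For NR5A1, a regulator of steroid-making cells, they were AAGGTCA (3.99%), and for GATA factors GATAA (23.5%). The half-site of the cAMP response element, TGACG, is held by 18.2% of all windows. The TATA box, TATAAA, is held by 12.9%. These matches describe letters and not bound sites. Windows were at hand for 6 of the 9 members: Ptgds, Ptgs1, Ptgs2, Ptges, Ptges3 and Hpgd.

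For the cyclooxygenases, the first step of the pathway, Ptgs1 had a higher mean and Ptgs2 a lower mean in T than in C, and neither difference passed the test. Ptgs1, the constitutive cyclooxygenase, stood at -3.77, -3.70, -3.99, -3.44 and -3.67 on C replicates 1 to 5, and at -3.49, -3.69, -3.42, -3.35 and -3.21 on T replicates 1 to 5. The groups overlapped over all arrays, while on each slide every T array lay above every C array, by a narrow gap. The nearest arrays on slide 1 were C replicate 2 at -3.704 and T replicate 2 at -3.691. On slide 2 they were C replicate 4 at -3.439 and T replicate 3 at -3.419. Each level is a mean of 8 to 10 spots, and the SD between spots of an array was 0.11. The difference, T minus C, was 0.28 ± 0.11 (log2, SE, n = 5 and 5; 95% confidence interval 0.03 to 0.54), or 1.22-fold, and it was 0.23 within slide 1 and 0.23 within slide 2. It did not pass the test over all probes (adjusted p = 0.999, limma with Benjamini-Hochberg adjustment).

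Ptgs2, the cyclooxygenase that is induced by hormones and inflammatory signals, was the only member whose kept probe was near background. It stood at -6.53, -6.28, -6.42, -5.92 and -6.14 on C replicates 1 to 5 and at -7.48, -7.80, -6.51, -6.33 and -6.30 on T replicates 1 to 5. It was well above background on 4 C arrays and 3 T arrays, and not on C replicate 1 or on T replicates 1 and 2. On slide 1 the T level of Ptgs2 is therefore only a bound, since neither T array there was well above background, and no fold is given for that slide. On each slide every T array lay below every C array in the mean of the 2 spots, though not in the second spot alone, whose values follow with the spread, and the groups overlapped over all arrays. The difference was -0.62 ± 0.29 (log2, SE, n = 5 and 5; 95% confidence interval -1.27 to 0.02) and -0.35 within slide 2, and it did not pass the test (limma, adjusted p = 0.999). Leaving out 1 array moved it between -0.77 (without T replicate 5) and -0.40 (without T replicate 2). With normexp background correction, which adds an offset of 50 and draws dim signals together, the difference was -0.10.

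The groups separated on both slides in the same direction for 2 members, narrowly for Ptgs1 and, in the mean of its spots, for Ptgs2. That held for 2.0% of all probes, with T higher on both slides for 0.864% and lower on both for 1.14%. On slide 1 the groups did not overlap for 3 of 9 members (Ptgs1, Ptgs2 and Ptges3), beside 18.3% of all probes. On slide 2 they did not overlap for 4 of 9 (these 3 and Ptgds), beside 18.7%. Ptges3 separated in opposite directions on the 2 slides, by very narrow gaps in a probe with 1 spot per array. Its nearest arrays on slide 1 were C replicate 2 at 3.616 and T replicate 2 at 3.619. On slide 2 C replicate 4 and T replicate 3 both read 3.556 to that precision. Over all 10 arrays no member separated the groups, beside 0.722% of all probes that did. Of these counts, nothing is read from that of Ptgds.

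**Figure D1:**
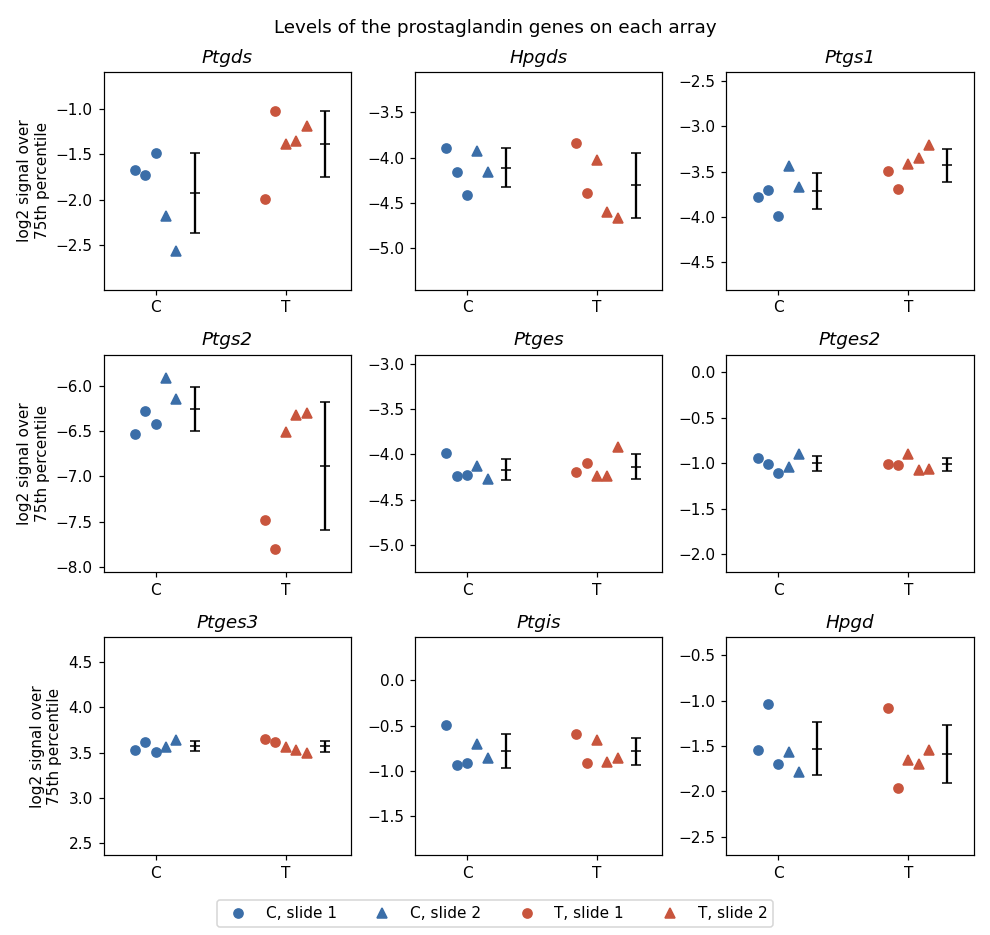
Level of each of the 9 genes on every array (log2 signal over the array's 75th percentile), C in blue and T in red, slide 1 as circles and slide 2 as triangles, with the mean and SD of each group as a bar beside the points. All panels span the same height in log2 units: Ptgds and Ptgs2 scatter over 1.54 and 1.88 units, and Ptges3 over 0.15.

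Ptgds, the lipocalin-type prostaglandin D synthase, varied 2.91-fold between the lowest and the highest array. Its level was -1.67, -1.73, -1.49, -2.18 and -2.56 on C replicates 1 to 5 and -1.99, -1.02, -1.39, -1.36 and -1.18 on T replicates 1 to 5. C replicates 4 and 5, both on slide 2, were the lowest, and T replicate 2 on slide 1 was the highest. On slide 1 the groups overlapped, with T replicate 1 below all 3 C arrays and T replicate 2 above them; on slide 2 all 3 T arrays lay above both C arrays.

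The mean of Ptgds was -1.93 ± 0.44 (SD, n = 5) in C and -1.39 ± 0.37 (SD, n = 5) in T, a difference of 0.54 ± 0.23 (log2, SE), or 1.45-fold. Within slide 1 the means were -1.63 in C and -1.51 in T, a difference of 0.13 ± 0.28 (SE). Within slide 2 they were -2.37 in C and -1.31 in T, a difference of 1.06 ± 0.14 (SE). Between the slides the C means lay further apart than the T means. Leaving out 1 array moved the difference over all arrays between 0.38 (without C replicate 5) and 0.69 (without T replicate 1).

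Hpgds, the haematopoietic prostaglandin D synthase of mast cells and other immune cells, makes the same product with another protein fold. It stood at -3.89, -4.16, -4.42, -3.93 and -4.16 on C replicates 1 to 5 and at -3.84, -4.39, -4.03, -4.60 and -4.67 on T replicates 1 to 5. The groups overlapped on both slides, and the 2 lowest arrays, T replicates 4 and 5, were both on slide 2. The difference was -0.20 ± 0.17 (log2, SE; 95% confidence interval -0.57 to 0.18), 0.04 within slide 1 and -0.39 within slide 2 (limma, adjusted p = 0.999 over all arrays). Leaving out 1 array moved it between -0.31 (without T replicate 1) and -0.10 (without T replicate 5), with -0.12 without T replicate 4, and with normexp correction it was -0.06.

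The 3 prostaglandin E synthases showed no difference beyond their spread. Ptges, the inducible microsomal enzyme, lay between -4.27 and -3.99 in C and between -4.24 and -3.92 in T, with a difference of 0.03 ± 0.08 (log2, SE; interval -0.15 to 0.22). Ptges2, a membrane-associated synthase, lay between -1.11 and -0.90 in C and between -1.07 and -0.90 in T, and its difference was -0.01 ± 0.06 (interval -0.15 to 0.12). Ptges3, which is also the Hsp90 co-chaperone p23, had the narrowest range of the members, 3.51 to 3.64 in C and 3.50 to 3.65 in T. Its difference was -0.0026 ± 0.056 over all arrays, 0.08 within slide 1 and -0.07 within slide 2.

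Ptgis, the prostacyclin synthase, and Hpgd, the dehydrogenase that inactivates prostaglandins, overlapped between the groups on both slides. Ptgis lay between -0.93 and -0.49 in C and between -0.91 and -0.60 in T, with a difference of -0.0041 ± 0.10 (log2, SE; 95% confidence interval -0.23 to 0.22). Hpgd lay between -1.79 and -1.04 in C and between -1.97 and -1.08 in T, and its difference was -0.06 ± 0.18 (interval -0.45 to 0.33). The interval of Hpgd is thus wider than that of Ptges2 or Ptges3.

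In the comparison over all arrays 0.0% of 21892 probes were called, members included, at a Benjamini-Hochberg adjusted p of 0.05 (limma; 869 probes had an unadjusted p under 0.05, and with a trended, robust variance the counts were 0 and 821). Of the 9 members 3 stood higher and 6 lower in T, with a median difference of -0.0041 beside -0.02 for all probes, and 5 lay within 0.1 of no difference. Within slide 1 and within slide 2 limma also called 0.0% (716 and 888 probes at an unadjusted p under 0.05).

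**Figure D2:**
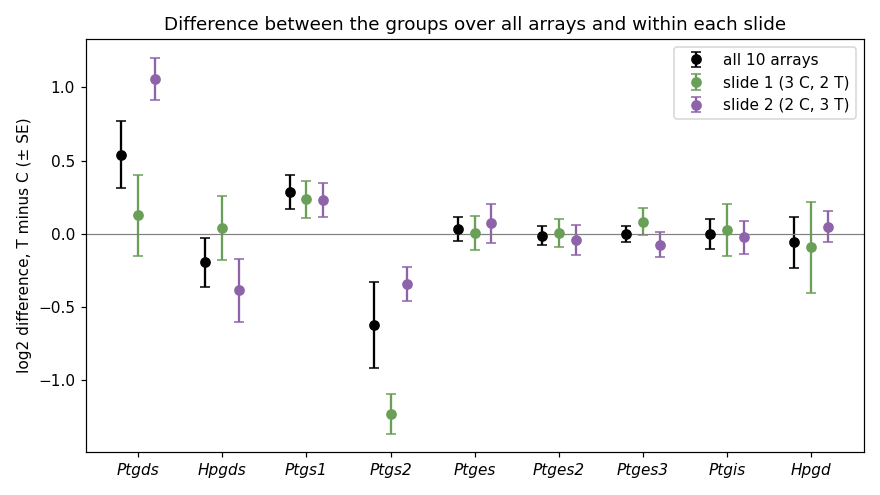
Difference between T and C of each gene (log2, T minus C, with its standard error) over all 10 arrays in black, within slide 1 in green and within slide 2 in purple. Ptgds goes from 0.13 on slide 1 to 1.06 on slide 2 and Ptgs1 is 0.23 on both; the slide 1 point of Ptgs2 rests on T arrays not well above background.

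Between the slides Ptgs2 passed the test, in a signal near background. With the group in the model Ptgs2 was 0.82 ± 0.17 higher on slide 2 than on slide 1 (log2, SE; adjusted p = 0.0114, limma), the only one of the 9 members called. Over all probes 9.79% were called in this comparison and 1.16% were called and higher on slide 2; the count of 2143 probes fell to 1277 when C replicate 5 was left out, to 1334 when T replicate 1 was and to 1410 when T replicate 2 was. Leaving out any single array kept Ptgs2 between 0.66 and 0.97, and with normexp correction it was 0.05 with an adjusted p of 0.776 (limma), so that the call ended. Of the 5 arrays of slide 1, C replicate 1 and T replicates 1 and 2 were not well above background for Ptgs2, so the size of this difference rests in part on signals near background.

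Ptgs1 was 0.27 ± 0.08 higher on slide 2 (log2, SE; limma, adjusted p = 0.0766), 0.31 after quantile normalization (limma, adjusted p = 0.0312) and 0.18 with normexp correction (limma, adjusted p = 0.176). Leaving out 1 array kept it between 0.22 and 0.31, with no call. Ptgds was 0.27 ± 0.22 lower, written -0.27 as slide 2 minus slide 1 (limma, adjusted p = 0.507); without T replicate 1 the value was -0.57 (limma, adjusted p = 0.0331) and without C replicate 5 it was -0.09 (limma, adjusted p = 0.875). For the other 6 members the slide difference lay between -0.18 (Hpgd) and 0.03 (Ptges2), and none passed the test.

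The T against C difference was larger on slide 2 than on slide 1 by 0.94 ± 0.35 for Ptgds, given as a description. For Hpgds it was -0.43 ± 0.34 (log2, SE; limma, adjusted p = 0.992), and for Ptgs2 none is given, since its T level on slide 1 is only a bound. No probe was called for such a change (0.0% of 21892, limma; 690 at an unadjusted p under 0.05). Of single arrays, leaving out C replicate 4 gave 1 called probe and leaving out C replicate 5 or T replicate 4 gave 2.

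The spread of Ptgds between arrays was far larger than that between its spots. Its SD within groups was 0.40, higher than in 92.0% of all probes (median 0.16, 90th percentile 0.37). Each array carries 2 spots of the Ptgds probe, and their SD was 0.04. The gap between these spots ran from 0.0029 to 0.12, the widest on T replicate 2, while the arrays ranged over 1.54. C replicate 5, the lowest array, read -2.61 and -2.52, and T replicate 2, the highest, read -1.08 and -0.96.

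For Ptgs2 the spots of an array differed widely. Its SD within groups was 0.53, higher than in 96.4% of all probes, and the SD between its 2 spots was 0.63. The first is the SD of the mean of the 2 spots and the second that of single spots, so their sizes cannot be ranked directly. On T replicate 1 the first spot read -8.49 and the second -6.47, a gap of 2.02, and on T replicate 2 they read -8.41 and -7.18. T replicate 3 read -7.21 and -5.80. On the 5 C arrays the first spot lay between -6.48 and -5.89 and the second between -6.64 and -5.94. The second spot alone thus overlapped between the groups on both slides, with -6.64, -6.09 and -6.49 in C against -6.47 and -7.18 in T on slide 1, and -5.94 and -6.17 in C against -5.80, -6.13 and -6.33 in T on slide 2.

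**Figure D3:**
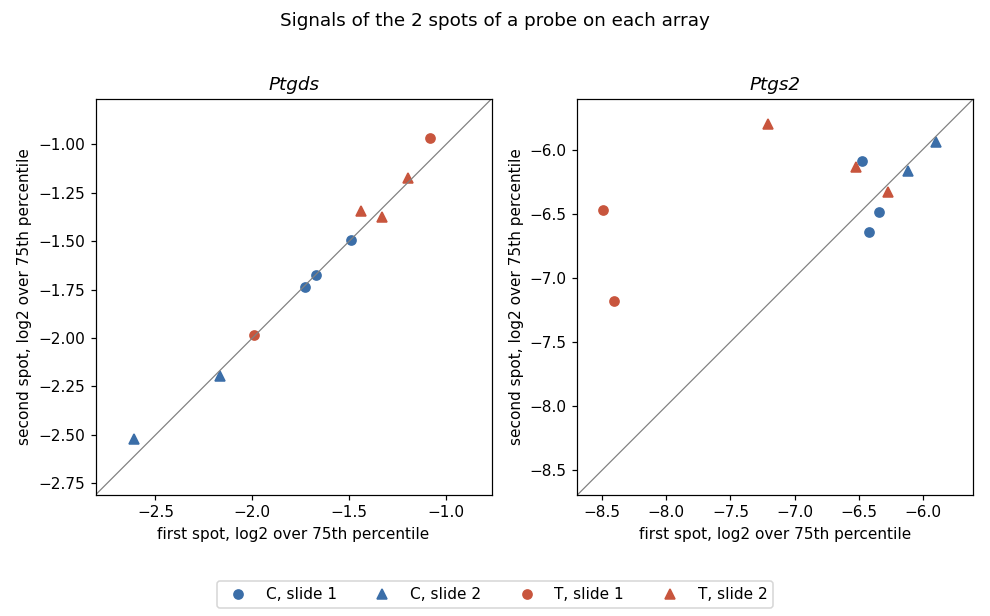
Signal of the second against the first spot of the Ptgds probe (left) and of the Ptgs2 probe (right) on each array (log2 over the 75th percentile), with the line of equal signals; C in blue, T in red, slide 1 as circles and slide 2 as triangles. The Ptgds spots lie along the line, and 3 T arrays depart from it for Ptgs2, by up to 2.02 units.

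The other members fell into a variable and a steady group. Hpgd and Hpgds had SDs within groups of 0.31 and 0.30, higher than in 83.9% and 82.4% of all probes, with SDs between spots of 0.12 and 0.15. Ptgs1 (0.19) and Ptgis (0.17) lay near the median of all probes. Ptges (0.13), Ptges2 (0.08) and Ptges3 (0.06) lay below it, and for Ptges2 the SD between single spots was 0.11.

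**Figure D4:**
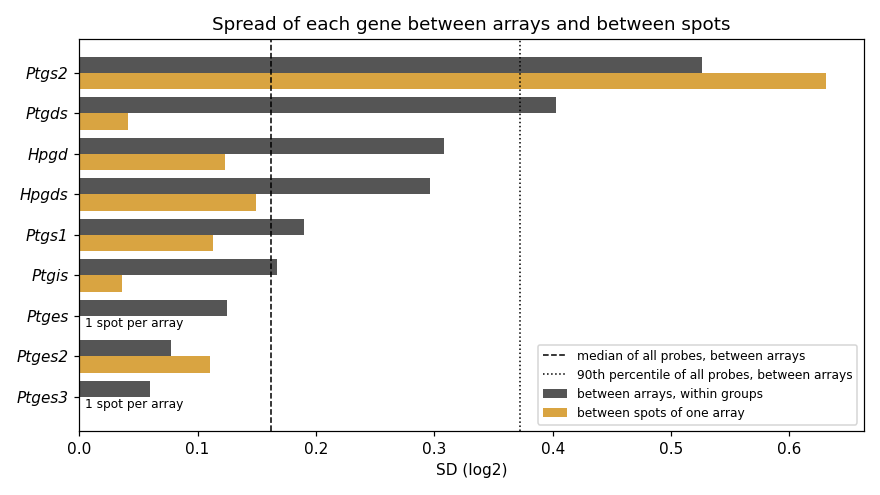
SD of each gene between arrays within groups (dark bars) and between the spots of its probe on an array (yellow bars), in log2 units; the dashed line is the median and the dotted line the 90th percentile of the SD between arrays over all probes. The SD between arrays is that of the mean of a probe's spots, and the SD between spots is that of single spots. Ptgds pairs a high SD between arrays (0.40) with a low SD between spots (0.04), and for Ptgs2 both are high (0.53 between arrays, 0.63 between spots).

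Among the 36 pairs of members, correlations over the 10 arrays are descriptions; the points share arrays, slides and scaling. The closest pair was Hpgds and Ptgis (r = 0.77, and 0.86 once the means of each group on each slide were removed). The most opposed pair over all arrays was Ptgds and Hpgds, the prostaglandin D synthases (r = -0.60, and -0.56 with those means removed). With those means removed Ptgds and Hpgd were the most opposed, at -0.70, against -0.26 over all arrays and -0.25 with group means alone removed. On T replicates 1 and 2 Hpgd stood at -1.08 and -1.97 and Ptgds at -1.99 and -1.02. Ptgs1 and Ptgs2 correlated at 0.13 over all arrays, at 0.77 with group means removed and at 0.71 with group and slide means removed. Ptgs2 was not well above background on C replicate 1 and T replicates 1 and 2, and its 2 spots differed by up to 2.02. Its correlations thus rest in part on signals near background. The 0.77 also keeps the slide differences of both genes (0.27 for Ptgs1 and 0.82 for Ptgs2, slide 2 minus slide 1).

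Of the genes whose level ran most like Ptgds over the 10 arrays, Bfsp1, a filament protein of the eye lens, came first (r = 0.94). It was followed by Lats2, a kinase of the Hippo pathway (0.90), Dkkl1, a secreted protein of germ cells (0.90), Opa1, a GTPase of mitochondrial fusion (0.89), Lrtomt (0.87), Pola2, a subunit of DNA polymerase alpha (0.87), Nrbf2 (0.85) and Zmym1 (0.85). A second Lats2 probe gave -0.23 and a second Nrbf2 probe 0.58. The lowest were Saraf, a regulator of calcium entry into the cell (-0.97), Crem, a cAMP-responsive transcription factor (-0.97), Creld1 (-0.91) and Cap1, an actin regulator (-0.90). The other 4 Crem probes gave -0.80 to -0.01.

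Of 21869 other probes, 3 correlated with Ptgds above 0.9 and 4 below -0.9, around a median of -0.03. These are extremes picked from that number over 10 arrays, and they carry no p. Saraf moved far less than Ptgds, with an SD over all 10 arrays, group means left in, of 0.08, as did Bfsp1 with 0.14. Saraf was highest on C replicates 4 and 5, at 2.98 and 3.06, and lowest on T replicates 2 and 5, at 2.81 and 2.81. Within slide 1 and within slide 2 Saraf gave r = -0.95 and -0.99, Crem -0.89 and -0.99, and Bfsp1 0.93 and 0.96. Leaving out 1 array kept between 2 (without T replicate 2) and 7 of the first 8 genes among the first 8, and with ranks in place of values 5 remained.

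Once the means of each group on each slide were removed, the highest were Secisbp2l (0.97), Tmem59 (0.97), Or9s13 (0.96), Dkkl1 (0.95) and Hif3a (0.95). Dkkl1 alone of these was also among the first 8 over all arrays. Before that removal Secisbp2l gave 0.39, Tmem59 0.37, Or9s13 0.48 and Hif3a 0.54. Within slide 1 and within slide 2 Secisbp2l gave r = 0.76 and 0.10, and Tmem59 0.99 and 0.52. Or9s13 gave 0.751 and 0.595, and Hif3a 0.765 and 0.685. Dkkl1 gave 0.988 within slide 2. For Ptgds, T replicates 1 and 2 (-1.99 and -1.02) had the widest gap within a group on a slide. The values with means removed therefore lean on that pair of arrays. Dkkl1 stood at -2.31, -2.29, -2.26, -2.44 and -2.48 on C replicates 1 to 5 and at -2.55, -2.15, -2.16, -2.19 and -2.12 on T replicates 1 to 5, so that T replicate 1 was its lowest array, while C replicates 4 and 5 were the lowest for Ptgds.

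The rest of the prostaglandin pathway was read from a list of 31 genes of substrate release, other synthases, receptors, breakdown and transport, of which 29 were on the array and 24 measured. In T 12 stood higher and 12 lower, limma called 0, and the median difference was 0.0069 beside -0.02 for all probes. Pla2g4a, the cytosolic phospholipase that frees arachidonic acid, differed by 0.09 ± 0.12 (log2, SE) and Pla2g2a, a secreted phospholipase detected on 4 C and 4 T arrays, by 0.35 ± 0.41.

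Among the other synthases, Tbxas1, the thromboxane synthase, differed by -0.03 ± 0.12, Cbr1, a carbonyl reductase, by 0.05 ± 0.10, Prxl2b, a prostaglandin F synthase, by -0.05 ± 0.10 and Akr1b1, an aldose reductase that also makes prostaglandin F, by -0.04 ± 0.08. All 4 lay within 1 standard error of no difference. On the receptor side, Ptgdr and Ptgdr2, the receptors of prostaglandin D, differed by -0.03 ± 0.11 and 0.04 ± 0.14, with 0.05 and 0.23 within slide 1 and -0.01 and -0.10 within slide 2.

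The receptors of prostaglandin F (Ptgfr, -0.09 ± 0.15), prostacyclin (Ptgir, -0.06 ± 0.17) and thromboxane (Tbxa2r, -0.05 ± 0.12) were measured on all arrays and did not pass the test. Of the prostaglandin E receptors, Ptger2, Ptger3 and Ptger4 were not well above background on any array. Pparg, a nuclear receptor that binds prostaglandin derivatives and directs fat cell differentiation, differed by -0.46 ± 0.37, -0.77 within slide 1 and 0.00023 within slide 2. Its level was -3.92 on C replicate 1 and between -6.33 and -4.90 on the other arrays. On that same array the mean of 5 measured fat cell markers was 1.07 above its mean over all arrays, against -0.54 to 0.30 on the others; its part in the Pparg value was not tested.

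The lipoxygenase branch, which turns arachidonic acid into leukotrienes and related lipids, had 7 of 12 listed genes measured, 4 higher and 3 lower in T, with 0 called by limma and a median difference of 0.0027. Alox15 differed by 0.29 ± 0.25 and Alox5 by -0.16 ± 0.15 (log2, SE). Alox5ap, Lta4h and Ltc4s lay between -0.02 and 0.04. Cyp2j4, an epoxygenase, had the highest correlation with Ptgds of the 2 lists together (r = 0.75) and differed by 0.14 ± 0.12.

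Marker genes of the cells that a testis holds were set beside the Ptgds level, and their part in it was not tested. On the mean deviation of 18 measured Sertoli cell markers, C arrays ranged from -0.03 to 0.10 and T arrays from -0.16 to 0.03 (log2); 4 markers were higher and 14 lower in T, beside 41.5% of all probes higher, and the mean correlated with Ptgds at -0.57. Without T replicate 4 the count of Sertoli cell markers higher in T was 8, and without C replicate 4 or T replicate 5 it was 7. The 12 measured germ cell markers ranged from -0.12 to 0.01 in C and from -0.06 to 0.20 in T, with 10 higher and 2 lower and a correlation of 0.53. The 11 measured Leydig cell markers ranged from -0.11 to 0.17 in C and from -0.14 to 0.15 in T, with 7 higher and 4 lower and a correlation of 0.39. Limma called 0 genes in every list. All correlations with Ptgds over the 10 arrays leave the group difference in, and Ptgds was chosen on that difference. A list mostly higher or mostly lower in T is thereby drawn toward a positive or a negative value.

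Of the Sertoli cell markers, Inha, Aard and Inhbb correlated with Ptgds at -0.21, -0.35 and -0.01. Of the Leydig cell markers, Hsd3b1 and Insl3 correlated at 0.63 and 0.63 and Cyp17a1 at 0.16. Of the germ cell markers, Uchl1, Nanos3 and Dazl correlated at 0.28, 0.30 and 0.35. Insl3, a peptide hormone of Leydig cells, differed between T and C by 0.35 ± 0.18, with 0.20 within slide 1 and 0.56 within slide 2, and did not pass the test (limma, adjusted p = 0.999).

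The 15 measured markers of duct epithelium ranged from -0.49 to 0.51 in C and from -0.51 to 0.37 in T, and their mean correlated with Ptgds at -0.43; C replicate 5, the lowest array for Ptgds, stood at 0.07 and T replicate 2, the highest, at -0.21. The 14 macrophage markers ranged from -0.10 to 0.07 in C and from -0.08 to 0.09 in T, with a correlation of 0.33. Of 10 mast cell markers, which bear on Hpgds, 3 were measured (Kit, Cma1 and Hdc), and Cpa3, Tpsb2, Tpsab1, Mcpt1, Ms4a2 and Fcer1a did not pass the background filter. Kit is also on the germ cell list, and Cma1 was well above background on only 3 C and 2 T arrays. The means of endothelial, smooth muscle, fibroblast, fat cell and mesothelial markers correlated with Ptgds at 0.13, -0.08, 0.23, 0.17 and 0.0041.

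**Figure D5:**
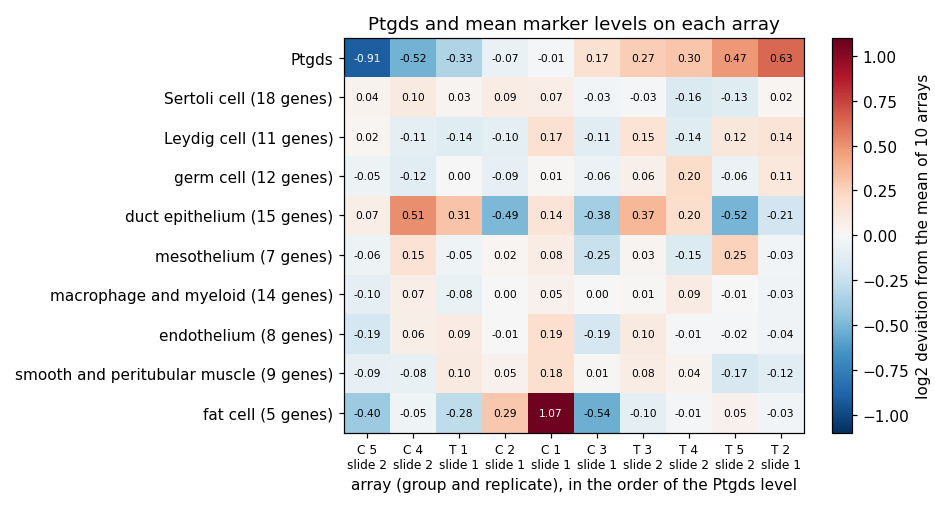
Deviation of Ptgds and of the mean of each marker list from its own mean over the 10 arrays (log2; red above, blue below), with arrays in the order of their Ptgds level from lowest to highest. The Sertoli cell mean correlates with Ptgds at -0.57 and the germ cell mean at 0.53, with the group difference left in, while the fat cell row is highest at 1.07 on C replicate 1.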

How the data were processed

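The scanner files deposited for 10 arrays hold spot intensities from Agilent Feature Extraction 10.7.3.1, per the file headers (10.7 in the submitters' processing notes), background-subtracted and not scaled between arrays. The authors' deposited table holds log2 values of 21193 of the probes; set against the same arrays, its columns correlated at 0.9978 to 0.9987 with the centred scanner values. Per the labels' protocols, column-purified RNA treated with DNase was amplified and labelled with Cy3.

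From 58717 non-control spots, the processed intensity was turned to log2 minus each array's 75th percentile, which lay between 1525 and 2686 units of intensity. Spots flagged as outliers (494 to 745 per array) were left out and spots of a probe averaged, and 21892 of 30367 probes that were well above background on at least 5 arrays were kept. Symbols came from RefSeq accessions. The groups were compared with limma 3.58.1 in R 4.3.3 over all arrays, within each slide (read from the barcode stem in the headers), with slide as a term and with its interaction, with Benjamini-Hochberg adjustment over all probes kept and a threshold of 0.05. The script was tested on simulated data. Summaries were made in Python 3.11.15. Gene lists used the brightest probe of each gene, and the mean deviation of a list is the average over its measured genes of the level minus that gene's mean over 10 arrays. The number of arrays limits the precision.

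The genes named are the 9 members, the other pathway genes, the 8 genes with the highest and 4 with the lowest correlation with Ptgds, the 5 highest after group and slide means were removed, and the 3 brightest of the main marker lists; Amh, Ddx4 and a few listed genes were named after their values were seen. The members and lists were chosen with earlier results of these data known. Alternatives were other background corrections, scalings, filters and variance models, the authors' values, slide or sire number as a block, and leaving out each array.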

Additional observations from a re-analysis of the deposited data

How the results depend on the processing

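No probe was called for T against C under any of the alternatives run. Leaving out 1 array gave 0 to 0 called probes there, 1277 to 2753 for the slide difference (2143 with all arrays), 0 to 2 for the change of T against C between slides, 2 to 7 of the first 8 genes like Ptgds and 9 to 17 pathway genes higher in T. With ranks in place of values 5 of those 8 genes remained, and with the authors' values 6. T minus C of Ptgds was 0.50 with normexp, 0.54 after quantile normalization, 0.55 with the authors' values and 0.59 with slide as a block. Ptgs1 gave 0.21 with normexp and 0.23 with slide as a block, and Ptgs2 gave -0.61 with the authors' values and -0.79 with slide as a block; Ptgs2 has no value where a probe had to be well above background on all arrays. The differences of Ptges, Ptges2, Ptges3, Ptgis and Hpgd changed sign when single arrays were left out. The sire numbers 4, 6 and 2 occur in both groups. With group means removed, arrays of the same number correlated at r = 0.28, 0.19 and -0.51. The 2 arrays of number 4 shared slide 1, those of number 6 shared slide 2, and those of number 2 were on different slides. Slide and number were thus mixed, and these values cannot tell whether the numbers are a pairing. The fit with the number as a replicate block used only the arrays of numbers 4, 6 and 2. They were C replicates 2, 4 and 5 and T replicates 1 to 3. With that block 0 probes were called (limma, 697 at an unadjusted p under 0.05). On these fewer arrays T minus C was 0.69 for Ptgds, 0.07 for Ptgs1 and -0.0040 for Hpgds. The value for Ptgs2, -1.15, leans on T replicates 1 and 2, which were not well above background. Both the arrays and the model changed, so a shift cannot be laid to the block alone. Signal over background limits Ptgs2 and the second Ptgs1 probe.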
